A study of Mus musculus with 44 samples.

Results

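Elastic fibre and microfibril genes are described here by 10 members, namely Eln, Fbn1, Fbn2, Fbln5, Efemp2, Mfap2, Mfap4, Mfap5, Emilin1 and Emilin2, out of 55486 genes in the count table. The members were taken by gene symbol, as a list chosen with earlier results of these data known. Each symbol had 1 row in the table, and all 10 passed the filter on low counts. They were followed in 44 RNA-seq libraries of fibroblasts sorted from the mammary glands of female En1-Cre;mTmG mice, in which cells of the Engrailed1 (En1) lineage carry membrane GFP and other cells membrane tdTomato. Cre follows En1 history in whatever cells used that promoter, so GFP marks past as well as present expression.

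All mice, controls included, were En1-Cre;mTmG recipients. Each received a small fragment of donor mammary gland beside an endogenous fat pad that was not cleared. The recipients came from purchased En1-Cre mice crossed for 2 generations to mTmG mice, which had themselves been backcrossed to FVB/n. The study gives its tumor models an FVB/n background. The labels call the control samples wildtype, and the study describes the control donor tissue as that of WapCre-negative Cdh1F/F;PtenF/F mice. WB1P mice carried pre-neoplastic tissue of WapCre;Brca1F/F;Trp53F/F donors and WB1P-Myc mice carried the same alleles plus Col1a1invCAG-Myc-IRES-Luc, where WapCre acts in mammary epithelium and both donor types give rise to triple-negative breast cancer. The sorted cells therefore came from glands and tumors in which the host's own stroma remained, and donor fibroblasts carry no reporter. Recipient age at harvest was not given in the sources used here. Fibroblasts were sorted as EpCAM-/CD49f-/CD31-/CD45- cells into En1+ (CD26-), double-, CD26+ (En1-) and double+ populations. Here En1+ and double- libraries of a mouse were summed as its CD26- fibroblasts, and CD26+ and double+ libraries as its CD26+ fibroblasts. This gave 25 sums from 13 mice: CD26- and CD26+ normal fibroblasts (NFs) of 3 control mice each, and cancer-associated fibroblasts (CAFs) of 5 WB1P mice for CD26- and 4 for CD26+, and of 5 WB1P-Myc mice for each class. Control samples carry 2 animal numbers each (82/83, 49/52 and 44/46), and each is treated as 1 mouse, which is also how the study counts them. WB1P-Myc mice 23 and 69 are marked 8x8, a tumor size in mm that the study uses for advanced tumors. The study describes the tumors of this experiment as end-stage and counts 4 WB1P-Myc mice, where the labels give 5. The labels give no size for the other tumors, so tumor stage may differ between the models as well.

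Elastic fibres give skin, vessels, lung and gland their recoil. Cells secrete tropoelastin, which is encoded by Eln, lay it onto a scaffold of fibrillin microfibrils and crosslink it there with lysyl oxidases. Fibulins guide tropoelastin to the scaffold and to the crosslinking enzyme, while microfibril-associated proteins and EMILINs sit on the microfibrils or at the elastin interface. Microfibrils also hold latent TGF-beta complexes, so these genes are studied in tumor stroma for growth factor storage as well as for mechanics.

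By the coordinates of the table (GRCm38), Eln lies at chr5:134702593-134747323 and Fbn1 at chr2:125300594-125507993, both on the minus strand. Of the fibulins, Fbln5 lies at chr12:101746565-101819055 (minus) and Efemp2 at chr19:5473954-5482517 (plus). The microfibril-associated genes are Mfap2 at chr4:141010418-141015984, Mfap4 at chr11:61485431-61488900 and Mfap5 at chr6:122505845-122529290, all on the plus strand. Emilin1 lies at chr5:30913402-30921277 (plus) and Emilin2 at chr17:71252172-71311978 (minus). Exons of 5 members overlap a gene of the opposite strand, Efemp2 with Mus81 over 173 bases, Eln with Gm30003 over 267, Fbn1 with Gm9913 over 2442, Fbn2 with Gm26507 over 129 and Mfap4 with Mapk7 over 89. The libraries were stranded, but the strand setting used in counting is not given in the sources used here, so reads in these overlaps may be shared with the partner.

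Promoter windows from RefSeq (GRCm38.p6, 250 bases before to 50 after a start site) were at hand for 6 of the 10 members, namely Fbn1, Fbln5, Efemp2, Mfap2, Emilin1 and Emilin2. Those 3 are printed whose transcripts differed most often between classes or tumors, and a reader can compare the GC-rich windows of Fbn1 and Efemp2 with the GC-poorer one of Emilin2. Capitals mark matches to GGGCGG (the GC box) or CAGAC (a SMAD-binding sequence), on either strand.
Fbn1, chr2:125506389-125506688, minus strand: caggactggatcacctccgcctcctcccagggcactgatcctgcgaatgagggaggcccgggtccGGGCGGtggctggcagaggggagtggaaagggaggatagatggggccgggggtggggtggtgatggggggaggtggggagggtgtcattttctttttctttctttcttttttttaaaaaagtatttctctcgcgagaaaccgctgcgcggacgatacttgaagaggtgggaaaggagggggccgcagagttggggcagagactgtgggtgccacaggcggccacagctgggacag
Efemp2, chr19:5473696-5473995, plus strand: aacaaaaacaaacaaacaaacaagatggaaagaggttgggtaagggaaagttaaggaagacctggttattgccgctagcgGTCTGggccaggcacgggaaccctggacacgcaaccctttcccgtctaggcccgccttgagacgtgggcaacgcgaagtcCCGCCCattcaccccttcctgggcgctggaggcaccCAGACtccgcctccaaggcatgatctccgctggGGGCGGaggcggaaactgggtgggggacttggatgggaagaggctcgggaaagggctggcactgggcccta
Emilin2, chr17:71311507-71311806, minus strand: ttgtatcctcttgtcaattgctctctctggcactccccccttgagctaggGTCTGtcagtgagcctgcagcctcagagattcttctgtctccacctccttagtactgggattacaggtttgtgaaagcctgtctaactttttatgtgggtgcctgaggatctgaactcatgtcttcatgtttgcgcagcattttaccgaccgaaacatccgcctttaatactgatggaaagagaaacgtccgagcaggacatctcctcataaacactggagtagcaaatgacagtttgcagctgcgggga
GC content was 60.3% in the Fbn1 window, 60.3% in that of Efemp2 and 48.3% in that of Emilin2, against a median of 52.7% over all 32851 windows of the table. GGGCGG occurred in 3 of the 6 members' windows (Fbn1, Fbln5 and Efemp2) and in 35.7% of all windows. CAGAC occurred in 5 of 6, all but Fbn1, and in 49.6% of all windows. CCAAT was found in Fbln5, Mfap2 and Emilin1 (37.4% of all windows), GGAATG, a TEAD-binding sequence, in Mfap2 alone (14.7%), and TATAAA (13.6%) and the AP-1 sequence TGANTCA (7.81%) in none of the 6. In Efemp2 the GC boxes began at -90 and -21 from the start site and CAGAC at -170 and -54, the single GC box of Fbn1 began at -185 and the single CAGAC of Emilin2 at -200. These matches describe letters in 1 window per gene and are not binding sites.

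Libraries held 5790599 to 15240328 counts, with a median of 12818093, and the lowest member count in any sum was 206, so counting error was small beside the spread between mice. Levels are given as CPM, counts scaled to a common library size after TMM normalization, and gene-to-gene comparisons as RPKM, which also divides by exon length. Dpp4, the gene of CD26, was at group means of 4.87 to 7.78 CPM in CD26- and 409.9 to 527 CPM in CD26+ fibroblasts, so the sort is seen in the RNA, whereas En1 itself was low, with group means of 6.85 to 35.4 CPM. The 8 fibroblast markers summed to 32230 to 90740 CPM in every sum, and both sums of control 49/52 were the lowest of their groups (43460 and 32230 CPM). Col1a1, Col1a2 and Col3a1 made up most of this sum, so it does not show each marker. Pdgfra had means of 1452 CPM in CD26- NFs and 424 and 561 CPM in CD26- CAFs of WB1P and WB1P-Myc. In the CD26+ class its means were 976 CPM in NFs and 753 and 880 CPM in CAFs. Summed epithelial markers reached at most 168 CPM, immune 229, endothelial 70.7, Schwann cell 42.9, adipocyte 11.0 and skeletal muscle 269 CPM. Markers of pericytes and smooth muscle (Rgs5, Cspg4, Mcam, Notch3, Abcc9, Kcnj8, Des and Myh11) were high in CD26- CAFs, with sums of 1940 to 5438 CPM in WB1P and 2513 to 9521 CPM in WB1P-Myc, beside 218 to 416 CPM for CD26- NFs and 157 to 395 CPM over all CD26+ sums. Rgs5, a pericyte gene, had means of 1031 and 2069 CPM in CD26- CAFs of the models, 27.9 CPM in CD26- NFs and at most 5.93 CPM in a CD26+ group. In bulk samples fewer cells of a type and less RNA per cell cannot be told apart.

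The members spanned a wide range of abundance. By RPKM, Fbn1 was the most abundant member in 5 of the 6 groups, with means of 323 to 863, and ranked 28th of 16591 genes in CD26+ CAFs of WB1P. In CD26- NFs Mfap4 stood above it, with 234 against 178 RPKM. Fbn2 was the least abundant member in CD26+ NFs at 6.46 RPKM, or rank 5344. A test was called where the adjusted p of edgeR's quasi-likelihood test, by Benjamini-Hochberg over all 16601 genes, was under 0.05.

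**Figure D1:**
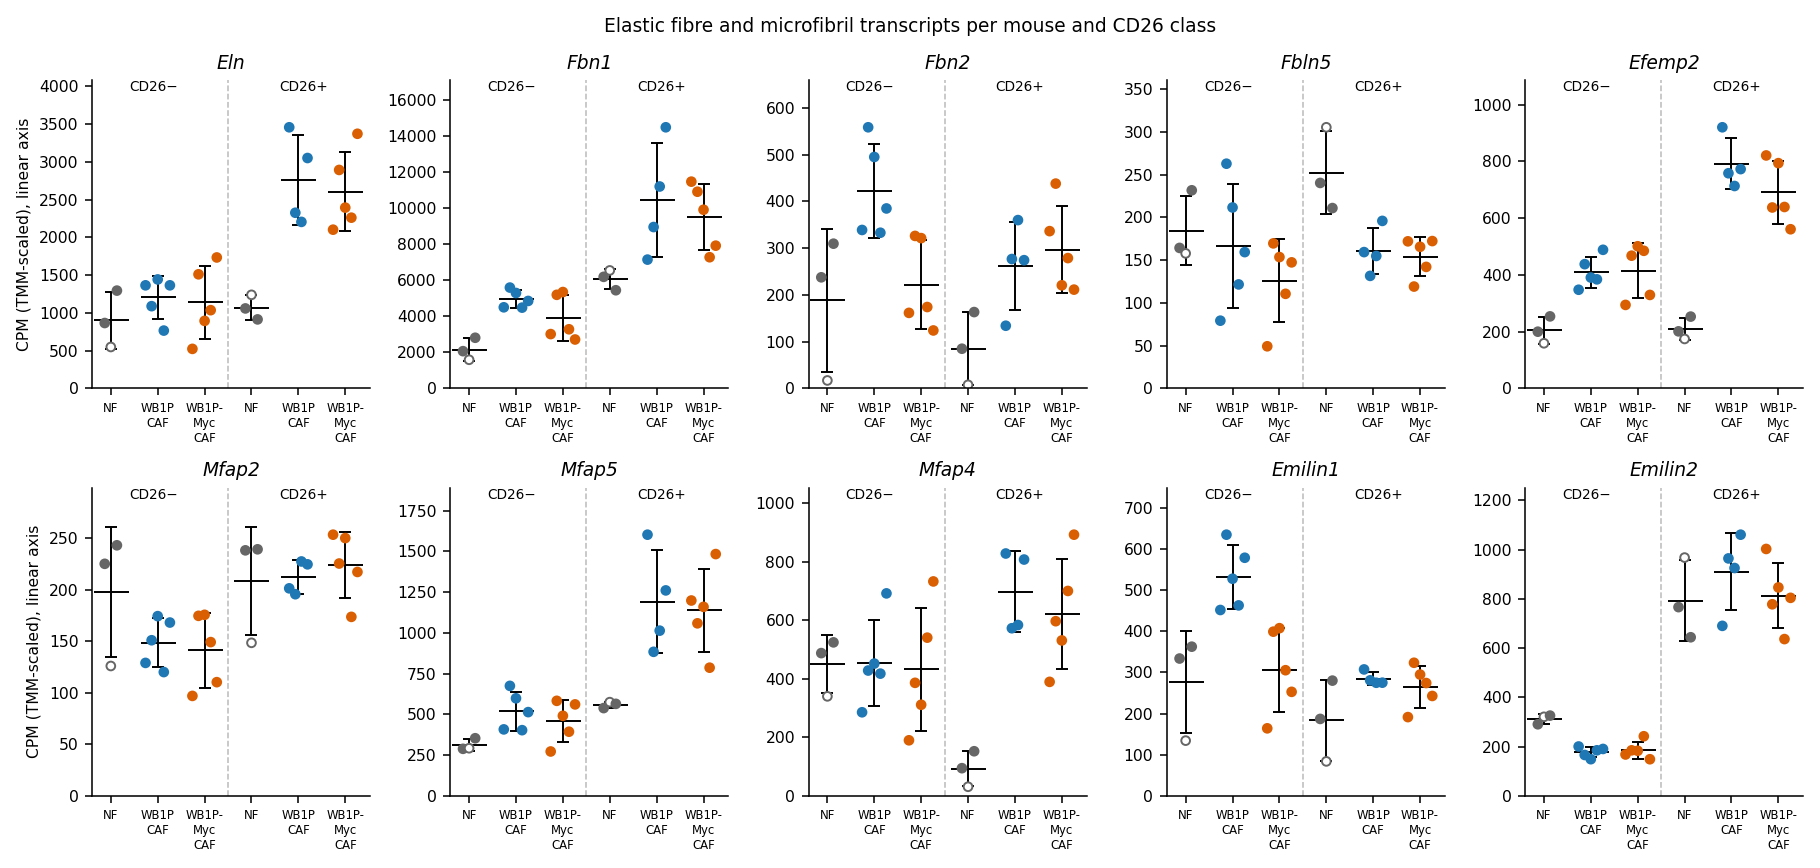
CPM of the 10 genes (linear vertical axes) in each mouse, with 1 point per mouse and CD26 class, bars for mean ± SD, and open symbols for control mouse 49/52. The 9 CD26+ CAF points of Mfap4 sit between 389 and 892 CPM, above the 3 CD26+ NF points at 31.1 to 152 CPM, while CD26- NFs and CAFs of Mfap4 overlap.

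The first question was how the members differ between CAFs and NFs of the same CD26 class. Efemp2 was higher in CAFs in all 4 comparisons, and Fbn1 in 3 of them. Eln, Mfap4 and Mfap5 were higher in CD26+ CAFs of both tumor models, and Emilin2 was lower in CD26- CAFs of both. In CD26- CAFs of WB1P 4 members rose and 1 fell, where 17.6% of all genes tested rose and 17.8% fell, and the members' median log2 fold change was 0.58 against 0.00198 over all genes. In CD26- CAFs of WB1P-Myc 2 rose and 1 fell, beside 19.1% and 17.5% of all genes, with medians of 0.19 and 0.02. In CD26+ CAFs of WB1P 5 rose and none fell, beside 17.4% and 16.1%, with medians of 0.94 and 0.00431, and in those of WB1P-Myc 4 rose and none fell, beside 17.4% and 17.3%, with medians of 0.84 and -0.00871. The 2 tumor models were set against the same NFs, so their results are not independent. Without control mouse 49/52, the counts called were 4 and 3 in CD26- CAFs and 4 and 5 in CD26+ CAFs of WB1P and WB1P-Myc. All genes called fell as well, from 5869 to 4356 and 6073 to 4668 in CD26- CAFs. In CD26+ CAFs they fell from 5566 to 4086 and 5753 to 4253. The totals hide a change of direction in CD26- CAFs. There the rises of Mfap5 and Emilin1 in WB1P and of Fbn1 in WB1P-Myc were lost, and Mfap2 was called lower in both models. Of the 8 fibroblast markers 2 rose and 3 fell in CD26- CAFs of WB1P, and 0 rose and 3 fell in those of WB1P-Myc. In CD26+ CAFs 2 of them rose and 1 fell in WB1P, and 2 rose and 0 fell in WB1P-Myc. All 8 pericyte and smooth muscle markers rose in CD26- CAFs of both models and 2 of 8 rose and 2 fell in CD26+ CAFs, and their part in the members' changes was not tested.

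**Figure D2:**
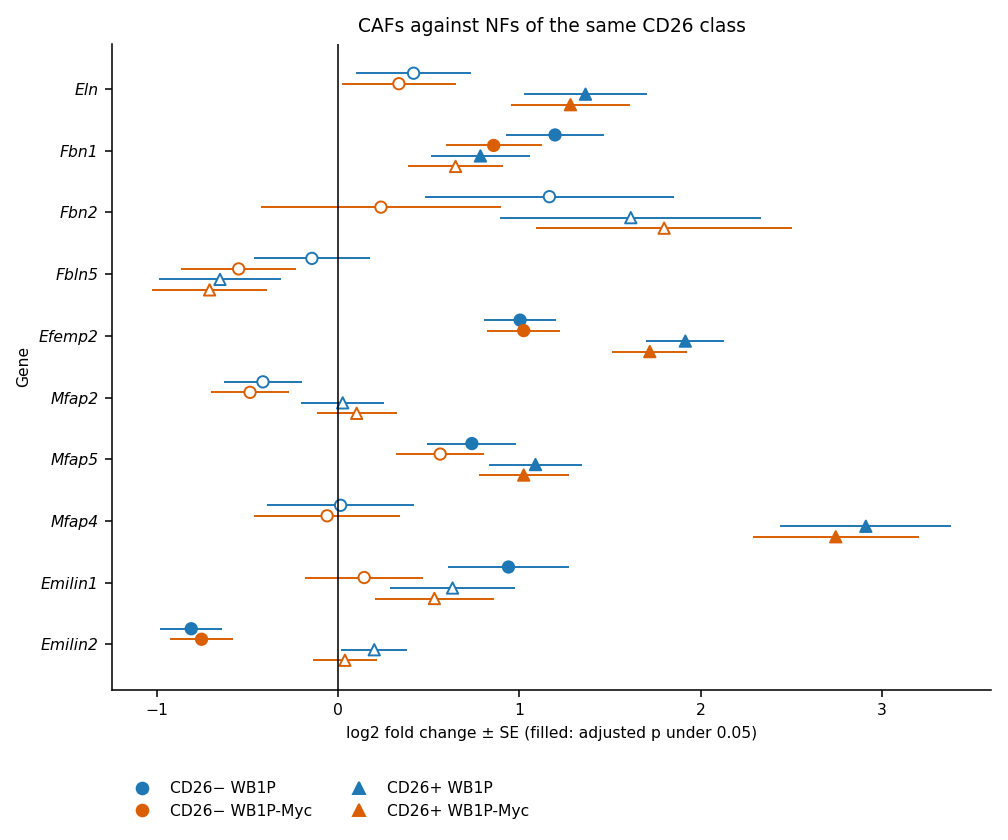
Log2 fold change of CAFs over NFs of the same CD26 class (horizontal axis) for each gene (vertical axis), by tumor model and class, with bars for the standard error and filled symbols where the adjusted p was under 0.05. Efemp2 is filled in all 4 comparisons, and the largest values are those of Mfap4 in CD26+ CAFs at 2.91 and 2.75.

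In the values below mice are given in the order 82/83, 49/52 and 44/46 for controls, 10, 93, 12, 14 and 35 for WB1P (mouse 10 has no CD26+ sum), and 21, 67, 95, 23 and 69 for WB1P-Myc. Eln encodes tropoelastin, the monomer of the elastic core. In control mice Eln was at 1296, 549 and 867 CPM in CD26- NFs and at 915, 1240 and 1060 CPM in CD26+ NFs. CD26- CAFs had 1366, 1366, 1090, 1444 and 767 CPM in WB1P and 524, 895, 1735, 1512 and 1037 CPM in WB1P-Myc. CD26+ CAFs had 3052, 3459, 2327 and 2206 CPM in WB1P and 2103, 2395, 3373, 2894 and 2262 CPM in WB1P-Myc. Every CD26+ CAF sum of Eln was thus above every other sum, whereas CD26- CAFs and NFs overlapped. Eln rose in CD26+ CAFs, with log2 fold changes of 1.36 ± 0.34 (SE, adjusted p = 0.00434) in WB1P and 1.28 ± 0.33 (adjusted p = 0.00513) in WB1P-Myc, calls that held in every alternative run. In CD26- fibroblasts the differences were 0.42 ± 0.32 (adjusted p = 0.319) and 0.34 (adjusted p = 0.417). The change in CD26+ minus that in CD26- fibroblasts, 0.95 ± 0.40, did not pass the test (adjusted p = 0.282).

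Fbn1, the backbone protein of adult microfibrils, was at 2817, 1595 and 2072 CPM in CD26- NFs and at 5457, 6558 and 6201 CPM in CD26+ NFs. WB1P CAFs had 4509, 4862, 5605, 5305 and 4491 CPM in the CD26- class and 14510, 7159, 8968 and 11220 CPM in the CD26+ class. WB1P-Myc CAFs had 3021, 5357, 2721, 5203 and 3288 CPM in the CD26- class and 11490, 9929, 7933, 10930 and 7291 CPM in the CD26+ class. CD26+ sums were above CD26- sums of the same group throughout, and CD26- NFs were lowest, overlapping only with CD26- CAFs of WB1P-Myc. Fbn1 rose in CD26- CAFs of WB1P by 1.20 ± 0.27 (adjusted p = 0.00152), and in those of WB1P-Myc by 0.86 ± 0.26 (adjusted p = 0.0149). The WB1P-Myc call was lost without control 49/52 (adjusted p = 0.0892), without control 44/46 (0.0647), without the 2 mice marked 8x8 (0.0576) and with only the groups compared (0.0676), the range over alternatives being 0.00347 to 0.0892. In CD26+ CAFs Fbn1 rose by 0.79 ± 0.27 in WB1P (adjusted p = 0.0311) and differed by 0.65 in WB1P-Myc (adjusted p = 0.059). That WB1P call was lost in 8 of 14 alternatives, among them leaving out WB1P 93 (log2 fold change 0.57, adjusted p = 0.118), WB1P 35 (0.0722) or any 1 of the control mice 82/83 (0.0912), 49/52 (0.0523) and 44/46 (0.0907), and with mouse as a random block (adjusted p = 0.0766), the range being 0.0117 to 0.118. The WB1P-Myc value passed without WB1P-Myc 95 (adjusted p = 0.0459) or 69 (0.0478), in a range of 0.0379 to 0.153.

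Fbn2, the fibrillin best known from development and wound repair, was set apart by 1 control mouse. In control mice it was at 309.5, 17.1 and 238 CPM in CD26- NFs and at 163, 7.78 and 85.0 CPM in CD26+ NFs, so that control 49/52 was lowest in both classes. CAF sums ranged from 124 to 558 CPM in the CD26- class and from 134 to 438 CPM in the CD26+ class. None of the 4 CAF comparisons of Fbn2 passed the test. In WB1P the log2 fold changes were 1.17 ± 0.69 (adjusted p = 0.192) in CD26- and 1.61 (adjusted p = 0.0862) in CD26+ CAFs, and in WB1P-Myc 0.24 (adjusted p = 0.801) and 1.80 (adjusted p = 0.0525). In CD26+ CAFs Fbn2 passed without control 82/83 in WB1P (2.49, adjusted p = 0.0296) and without 82/83 (2.68, adjusted p = 0.0205) or 49/52 (1.28, adjusted p = 0.0325) in WB1P-Myc, and its adjusted p ranged over alternatives from 0.0183 to 0.184 and from 0.00682 to 0.148. With mouse as a random block Fbn2 passed in 3 comparisons, with adjusted p = 0.0404 for CD26- CAFs of WB1P and 0.0183 and 0.00683 for CD26+ CAFs of WB1P and WB1P-Myc.

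Efemp2 encodes fibulin-4, which brings lysyl oxidase to tropoelastin. In control mice it was at 254, 159 and 200 CPM in CD26- NFs and at 253, 174 and 201 CPM in CD26+ NFs. WB1P CAFs had 348, 488, 438, 391 and 384 CPM in the CD26- class and 773, 919.9, 758 and 713 CPM in the CD26+ class. WB1P-Myc CAFs had 294, 501, 329, 468 and 485 CPM in the CD26- class and 821, 794, 561, 637 and 639 CPM in the CD26+ class. The classes of NFs overlapped, all CAF sums were above all NF sums, and all CD26+ CAF sums were above all CD26- CAF sums. Efemp2 rose by 1.00 ± 0.20 (adjusted p = 0.00053) and 1.02 ± 0.20 (adjusted p = 0.000511) in CD26- CAFs of WB1P and WB1P-Myc. In CD26+ CAFs it rose by 1.92 ± 0.21 (adjusted p = 2.53e-06) and 1.72 ± 0.21 (adjusted p = 6.53e-06), and all 4 calls held in every alternative run. The change in CD26+ minus that in CD26- fibroblasts was 0.80 ± 0.25 (adjusted p = 0.102). That difference passed under DESeq2 (adjusted p = 0.0357), with mouse as a random block (0.00871) and with mouse as a fixed block (0.0404), and ranged to 0.382 over the alternatives.

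Fbln5, fibulin-5, tethers tropoelastin to microfibrils and to cell-surface integrins. It ran at 158 to 232 CPM in CD26- NFs and 211 to 306 CPM in CD26+ NFs. CAFs had 49.3 to 263 CPM in the CD26- class and 119 to 196 CPM in the CD26+ class, where all 9 sums were below the 3 CD26+ NF sums. No comparison of Fbln5 passed the test, and the values nearest to it were -0.65 (adjusted p = 0.135) and -0.71 (adjusted p = 0.0857) in CD26+ CAFs of WB1P and WB1P-Myc. The latter passed without WB1P-Myc 21 (-0.75, adjusted p = 0.0464), with only the groups compared (0.0117) and with only sums of 2 libraries (0.0367), in a range of 0.0117 to 0.295.

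Mfap4, a microfibril-associated protein with a fibrinogen-like domain that binds tropoelastin and fibrillin, showed the widest separation of the members. In control mice it was at 524, 339.9 and 488 CPM in CD26- NFs but at 152, 31.1 and 94.6 CPM in CD26+ NFs. WB1P CAFs had 286, 692, 428, 452 and 418 CPM in the CD26- class and 807, 828, 573 and 584 CPM in the CD26+ class. WB1P-Myc CAFs had 189.8, 311, 732, 386 and 540.4 CPM in the CD26- class and 389, 597, 531, 699.9 and 892 CPM in the CD26+ class, the latter for mice 21, 23, 67, 69 and 95. CD26+ NFs were thus below every other sum, and CD26- CAFs and NFs overlapped. Mfap4 rose in CD26+ CAFs by 2.91 ± 0.47 (adjusted p = 0.00013) in WB1P and 2.75 ± 0.46 (adjusted p = 0.000177) in WB1P-Myc, and both calls held in every alternative run, with log2 fold changes of 2.51 to 3.46 and 2.35 to 3.30. In CD26- CAFs the differences were 0.01 (adjusted p = 0.984) and -0.06 (adjusted p = 0.92), and their sign turned under some alternatives.

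Mfap5, also called MAGP-2, and Mfap2, also called MAGP-1, are small glycoproteins that bind fibrillin. Mfap5 was at 354, 292 and 289 CPM in CD26- NFs and at 565, 575 and 539 CPM in CD26+ NFs. WB1P CAFs had 408, 514, 675, 599 and 403 CPM in the CD26- class and 1261, 1603, 884 and 1014 CPM in the CD26+ class. WB1P-Myc CAFs had 272, 492, 561, 583 and 394 CPM in the CD26- class and 1199, 1160, 1484, 1059 and 787 CPM in the CD26+ class. All CD26+ CAF sums were above all other sums. Mfap5 rose in CD26+ CAFs by 1.09 ± 0.26 (adjusted p = 0.00311) in WB1P and 1.02 ± 0.25 (adjusted p = 0.00364) in WB1P-Myc, in every alternative run. In CD26- CAFs it rose by 0.74 ± 0.25 in WB1P (adjusted p = 0.0229), a call lost without control 49/52 (0.0823) or 44/46 (0.0895) in a range of 0.00451 to 0.0895. In CD26- CAFs of WB1P-Myc the difference in Mfap5 was 0.56 (adjusted p = 0.0735), which passed without WB1P-Myc 21 (0.70, adjusted p = 0.0239), in a range of 0.0224 to 0.199.

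Mfap2 moved little, with group means of 142 to 224 CPM. In the CD26- class NF sums lay at 126 to 243 CPM beside 97.1 to 176 CPM for CAFs, in the CD26+ class at 149 to 239 CPM beside 174 to 254 CPM, and CAFs overlapped NFs in each class. Log2 fold changes were -0.42 (adjusted p = 0.142) and -0.49 (adjusted p = 0.0824) in CD26- CAFs of WB1P and WB1P-Myc, and 0.03 (adjusted p = 0.946) and 0.10 (adjusted p = 0.745) in CD26+ CAFs. Without control 49/52 Mfap2 fell in CD26- CAFs, by 0.64 in WB1P (adjusted p = 0.0265) and by 0.71 in WB1P-Myc (adjusted p = 0.014), the ranges over alternatives being 0.0265 to 0.501 and 0.014 to 0.463. In CD26+ CAFs its sign turned when the same mouse was left out, and in WB1P also without WB1P 93 or 35.

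The EMILINs, glycoproteins at the interface of elastin and microfibrils, went apart. Emilin1 was at 363, 134 and 334 CPM in CD26- NFs and at 280.2, 83.8 and 187 CPM in CD26+ NFs. WB1P CAFs had 452, 579, 635, 528 and 463 CPM in the CD26- class and 275, 307, 281 and 275 CPM in the CD26+ class. WB1P-Myc CAFs had 164, 408, 253, 399 and 306 CPM in the CD26- class and 192, 295, 243, 324 and 274 CPM in the CD26+ class. CD26- CAFs of WB1P were the highest group and overlapped none of the others. Emilin1 rose in them by 0.94 ± 0.33 over CD26- NFs (adjusted p = 0.0322), and the other 3 CAF comparisons did not pass, with log2 fold changes of 0.14 in CD26- CAFs of WB1P-Myc and 0.63 and 0.53 in CD26+ CAFs. The call was lost without control 49/52 (0.63, adjusted p = 0.0944) and without WB1P 93 (0.0512), 12 (0.0607) or 14 (0.0531), in a range of 0.00959 to 0.0944. Without control 82/83 the differences of Emilin1 in CD26+ CAFs passed, at 1.06 (adjusted p = 0.0343) in WB1P and 0.97 (adjusted p = 0.0459) in WB1P-Myc, in ranges of 0.0343 to 0.45 and 0.0459 to 0.594.

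Emilin2 was at 326, 321 and 291 CPM in CD26- NFs and at 644, 968 and 767 CPM in CD26+ NFs. WB1P CAFs had 201, 191, 166, 149 and 185 CPM in the CD26- class and 1061, 691, 965 and 926 CPM in the CD26+ class. WB1P-Myc CAFs had 168, 183, 149, 185 and 242 CPM in the CD26- class and 1003, 847, 804, 778 and 637 CPM in the CD26+ class. CD26- CAFs were thus below CD26- NFs without overlap, and CD26+ NFs and CAFs shared 1 range above both. Emilin2 fell in CD26- CAFs by 0.81 on the log2 scale in WB1P (SE 0.17, adjusted p = 0.00091) and by 0.75 in WB1P-Myc (SE 0.17, adjusted p = 0.00189), in every alternative run. In CD26+ CAFs the log2 fold changes were 0.20 (adjusted p = 0.417) and 0.04 (adjusted p = 0.888).

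The next question was how the CD26 classes differ within control glands and within tumors. In NFs, Fbn1 and Emilin2 were higher and Mfap4 lower in the CD26+ class. From its single-cell data the study had already reported Fbn1 and Emilin2 among the matrix genes expressed mainly by CD26+ NFs. In CAFs of both models Eln, Fbn1, Efemp2, Mfap5 and Emilin2 were higher in the CD26+ class. In NFs 2 members were higher and 1 lower in CD26+ cells, beside 2.67% and 1.49% of all genes. Fbn1 differed by 1.49 ± 0.29 (adjusted p = 0.00359), Emilin2 by 1.34 ± 0.20 (adjusted p = 0.000191) and Mfap4 by -2.28 ± 0.47 (adjusted p = 0.00552). The classes came from the same mice, and with mouse as a fixed block 6 members were called, beside 5.73% of all genes higher and 5.85% lower. The block added Mfap5 (0.85, adjusted p = 0.0225), Emilin1 (-0.63, adjusted p = 0.0106) and Fbn2 (-1.18, adjusted p = 0.0407), whose adjusted p without it were 0.0878, 0.541 and 0.588. Over the alternatives these ranged from 0.00719 (mouse as a random block) to 0.47 for Mfap5, from 0.0106 to 1 for Emilin1 and from 0.0407 to 1 for Fbn2. With only the 3 control mice in the fit, or without control 44/46, 1 member was called, Emilin2. Without 44/46 the adjusted p was 0.0782 for Fbn1 and 0.0778 for Mfap4, and without 49/52 it was 0.0937 for Fbn1, in ranges of 1.02e-05 to 0.0937 for Fbn1 and 2.29e-05 to 0.11 for Mfap4. In NFs 3 of the 8 pericyte and smooth muscle markers were lower in the CD26+ class, and their part in these differences was not tested.

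In WB1P CAFs 5 members were higher and 1 lower in the CD26+ class, beside 13% of all genes in each direction. In WB1P-Myc CAFs 6 were higher and none lower, beside 9.29% and 10.7%. Emilin2 differed most, by 2.35 ± 0.16 (adjusted p = 7.18e-09) in WB1P and 2.13 ± 0.16 (adjusted p = 9.26e-09) in WB1P-Myc. Fbn1 differed by 1.08 ± 0.24 (adjusted p = 0.00167) and 1.28 ± 0.23 (adjusted p = 0.000254), and Eln by 1.19 ± 0.29 (adjusted p = 0.00361) and 1.19 ± 0.27 (adjusted p = 0.003). Mfap5 differed by 1.20 ± 0.22 (adjusted p = 0.000348) and 1.30 ± 0.21 (adjusted p = 9.53e-05). Efemp2 differed by 0.95 ± 0.18 (adjusted p = 0.000394) and 0.73 ± 0.17 (adjusted p = 0.00293), the latter lost with only sums of 2 libraries (adjusted p = 0.0562, the highest over its alternatives). These 5 genes did not overlap between the CAF classes in either model, but the share of all genes without such overlap was not counted.

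The models differed in which further member was called between the CAF classes, a difference that was not tested. In WB1P Emilin1 was lower in the CD26+ class, by -0.90 ± 0.30 (adjusted p = 0.0311). The Emilin1 call was lost without WB1P 93 (0.0838), 12 (0.0888), 14 (0.0898) or 35 (0.0628) and with only sums of 2 libraries (0.0524), and held with mouse as a fixed or random block, in a range of 7.9e-05 to 0.0898. In WB1P-Myc Mfap2 was higher in the CD26+ class, by 0.66 ± 0.19 (adjusted p = 0.0155), a call lost without WB1P-Myc 21 (0.51, adjusted p = 0.12) or 95 (0.0668) and with only sums of 2 libraries (adjusted p = 0.344), in a range of 0.000669 to 0.344. With mouse as a fixed block Mfap2 also passed in WB1P (0.48, adjusted p = 0.0448) and Mfap4 in WB1P-Myc (0.62, adjusted p = 0.0262), where the adjusted p without the block were 0.0629 and 0.328. Mfap2 in WB1P passed with mouse as a random block too (0.0162), in a range of 0.0162 to 0.232, and Mfap4 in WB1P-Myc ranged from 0.0262 to 0.574. Of the pericyte and smooth muscle markers 6 of 8 in WB1P and 8 of 8 in WB1P-Myc were lower in CD26+ CAFs, and their part in these differences was not tested.

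Within single mice the direction was uniform for some members, and the share of all genes with a uniform direction was not counted. CD26+ minus CD26- fibroblasts of the same mouse gave log2 differences above 0 in 12 of 12 mice for Fbn1, from 0.35 to 2.04, for Mfap5, from 0.56 to 2.14, and for Emilin2, from 0.98 to 2.69. For Mfap4 they were -1.78, -3.45 and -2.36 in control mice 82/83, 49/52 and 44/46 and above 0 in all 9 tumor mice, from 0.22 to 1.04. For Efemp2 they were -0.0045, 0.13 and 0.0091 in the control mice and 0.40 to 1.48 in the tumor mice. For Mfap4 the order of the classes was thus opposite in control and tumor mice. In the main fit, however, the Mfap4 difference between the CAF classes was not called and the classes overlapped. It was 0.62 ± 0.37 (edgeR adjusted p = 0.233) in WB1P and 0.53 ± 0.35 (adjusted p = 0.328) in WB1P-Myc.

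**Figure D3:**
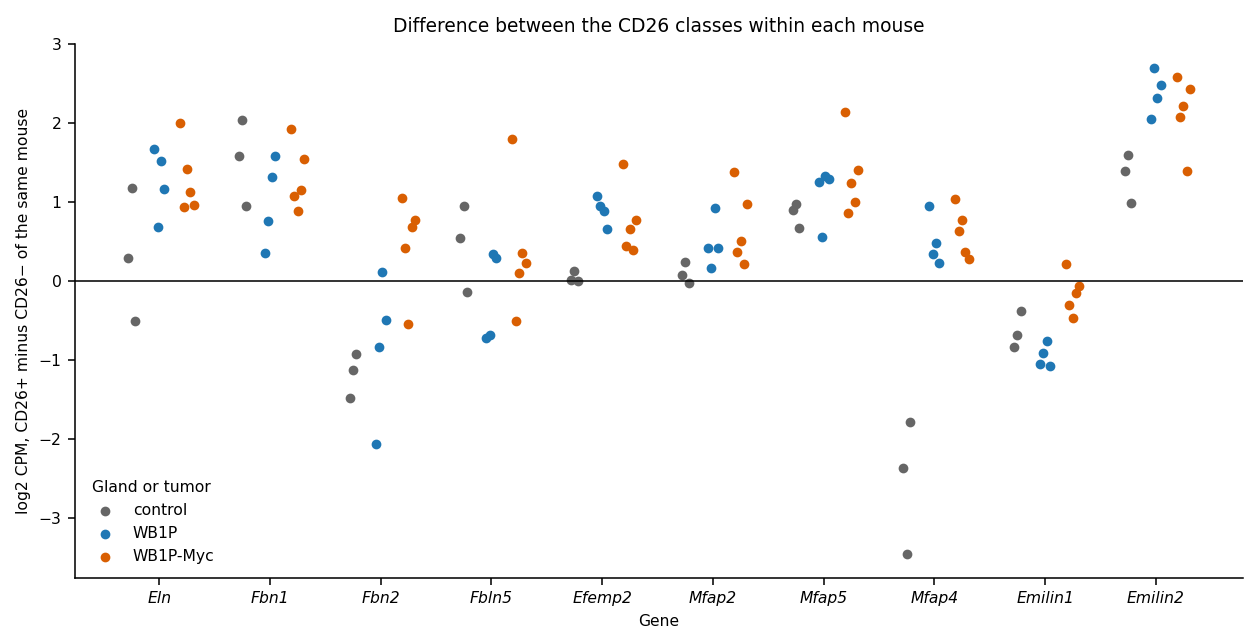
Log2 CPM in CD26+ minus CD26- fibroblasts of the same mouse (vertical axis) for each gene (horizontal axis), with 1 point per mouse coloured by control, WB1P or WB1P-Myc. Points of Mfap4 lie at -1.78 to -3.45 in the 3 control mice and at 0.22 to 1.04 in the 9 tumor mice.

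The difference between the classes in their change from NFs to CAFs, averaged over both models, was taken as the log2 change in CD26+ minus that in CD26- fibroblasts. It passed for 2 members with a positive difference and for none with a negative one, beside 0.723% and 1.39% of all genes. It was 2.85 ± 0.54 for Mfap4 (adjusted p = 0.0046) and 0.90 ± 0.22 for Emilin2 (adjusted p = 0.0352). Mfap4 was low in CD26+ NFs and rose there, while Emilin2 fell in CD26- fibroblasts. Without control 44/46 neither was called, with adjusted p = 0.059 for Mfap4 (range over alternatives 1.05e-05 to 0.059) and 0.208 for Emilin2. The Emilin2 call was lost in 12 of 20 alternatives, with adjusted p from 0.00394 to 0.286, the highest without control 82/83, and also without control 49/52 (0.067), WB1P 93 (0.0617), 14 (0.0701) or 35 (0.0769), or WB1P-Myc 21 (0.0619), 67 (0.073), 95 (0.0665) or 23 (0.0682). For pericyte and smooth muscle markers the same difference passed for 6 of 8, all lower in CD26+ fibroblasts, and its part was not tested.

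CAFs of the 2 tumor models were then compared within each class, and no member passed. In CD26- CAFs 0 of 10 members were called by edgeR, beside 0.512% of all genes in either direction, with 1 member (Emilin1) at an unadjusted p under 0.05 and 0 called by DESeq2 or by limma-voom with mouse as a random block. Log2 differences of WB1P-Myc minus WB1P ran from -0.93 ± 0.57 for Fbn2 to 0.06 ± 0.15 for Emilin2. Emilin1 stood at -0.80 ± 0.28 (adjusted p = 0.198) and both it and Fbn2 did not overlap between the models, WB1P-Myc being lower. How many of all genes did not overlap between the models was not counted. In CD26+ CAFs 0 of 10 were called, beside 0% of all genes (646 genes and 0 members at an unadjusted p under 0.05, and 9 genes and 0 members by DESeq2), with differences from -0.20 ± 0.18 for Efemp2 to 0.18 ± 0.60 for Fbn2.

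The En1 lineage was compared in single libraries, as the mean difference over control, WB1P and WB1P-Myc with equal weight. Neither NFs nor CAFs were tested alone, and differences of opposite sign could cancel. Between En1+ and double- fibroblasts 0 of 10 members were called, beside 0.00642% of 15584 genes, with log2 differences from -0.20 ± 0.19 for Eln to 0.23 ± 0.20 for Emilin1. No member was at an unadjusted p under 0.05, DESeq2 called 16 genes and 0 members, and with mouse as a fixed block 32 genes and 0 members were called, with 1 member at an unadjusted p under 0.05. Between double+ and CD26+ (En1-) fibroblasts 0 of 10 were called, beside 0.0128% of genes, with differences from -0.14 ± 0.43 for Fbn2 to 0.20 ± 0.25 for Mfap4. Here 0 members were at an unadjusted p under 0.05 and 0 were called by DESeq2.

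Of 29 genes of the same pathway, 28 could be tested and Mmrn1 was too low. Between CAFs and NFs 9 rose and 7 fell in CD26- CAFs of WB1P, 9 and 3 in those of WB1P-Myc, 11 and 3 in CD26+ CAFs of WB1P and 10 and 4 in those of WB1P-Myc. Over all genes tested 17.6%, 19.1%, 17.4% and 17.4% rose and 17.8%, 17.5%, 16.1% and 17.3% fell in these comparisons, and the median log2 fold changes of the 28 genes were 0.08, -0.18, 0.34 and 0.21. Of the 5 lysyl oxidases, which crosslink tropoelastin and collagen, 3, 4, 4 and 3 rose in the same comparisons and none fell, beside the 17.4% to 19.1% of all genes that rose. Lox had means of 599.5 ± 59.1 (SD, n = 3) and 402 ± 137 (n = 3) CPM in CD26- and CD26+ NFs and of 2002 ± 360.2 (n = 5) and 4225 ± 834 (n = 4) CPM in the CAFs of WB1P. It rose by 1.74 ± 0.27 (adjusted p = 3.57e-05) in CD26- and by 3.39 ± 0.30 (adjusted p = 1.51e-07) in CD26+ CAFs of WB1P, and the change over both models was larger in CD26+ fibroblasts by 1.76 ± 0.32 (adjusted p = 0.00384). Loxl3 rose by 2.85 ± 0.30 (adjusted p = 4.63e-07) in CD26- and 1.68 ± 0.29 (adjusted p = 0.000269) in CD26+ CAFs of WB1P, and was lower in CD26+ than in CD26- CAFs there by -1.19 ± 0.25 (adjusted p = 0.00135). Loxl2 rose in CD26- CAFs of both models and in CD26+ CAFs of WB1P, by 1.06 ± 0.25 in the first of these (adjusted p = 0.00209).

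Among the 4 latent TGF-beta binding proteins, Ltbp2 rose in all 4 comparisons, from means of 3.17 to 3.44 CPM in NFs to 355 to 518 CPM in CAFs, with log2 fold changes of 6.81 to 7.23. Ltbp1 and Ltbp4 fell in CD26- CAFs of WB1P and passed in none of the other 3 comparisons, by 1.71 (adjusted p = 0.00538) and by 1.27 (adjusted p = 0.0237) on the log2 scale. Of the 4 other fibulins, Fbln2 rose in all 4 comparisons, by 1.32 ± 0.26 (adjusted p = 0.000495) and 1.06 ± 0.26 (adjusted p = 0.00297) in CD26- and 1.58 ± 0.27 (adjusted p = 0.000236) and 1.58 ± 0.26 (adjusted p = 0.000177) in CD26+ CAFs. Fbln1 rose in CD26+ CAFs of both models, by 1.22 (adjusted p = 0.0126) and 1.15 (adjusted p = 0.0141), while Efemp1 fell in CD26- CAFs of WB1P by 2.11 on the log2 scale (adjusted p = 0.00479). Of the other EMILIN family genes, Mmrn2 fell in all 4 comparisons but was at only 2.27 to 2.68 CPM in NFs.

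Of the 7 ADAMTS and ADAMTS-like genes of microfibrils, Adamts6 rose in all 4 comparisons and Adamts10 and Adamtsl5 fell in all 4. Adamts6 went from means of 0.754 and 3.36 CPM in CD26- and CD26+ NFs to 78.2 and 44.6 CPM in CAFs of WB1P, and its change was smaller in CD26+ fibroblasts (-2.45 ± 0.57, adjusted p = 0.0226). Adamtsl4 was higher in the CD26+ class in NFs (3.00 ± 0.46, adjusted p = 3e-04), WB1P CAFs (3.26 ± 0.37, adjusted p = 2.01e-06) and WB1P-Myc CAFs (2.34 ± 0.35, adjusted p = 4.3e-05). Of 6 proteases that can degrade elastin, Mmp9 and Ctss rose in all 4 comparisons and Mmp2, Mmp12, Ctsk and Ctsl passed in none of them. Mmp9 had a mean of 0.454 CPM in CD26- NFs against 447 ± 275 (SD, n = 5) CPM in CD26- CAFs of WB1P. Ctss, a gene of macrophages as well, stayed low, at group means of 0.436 to 11.0 CPM, beside summed immune markers of 7.29 to 229 CPM, and their part was not tested.

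**Figure D4:**
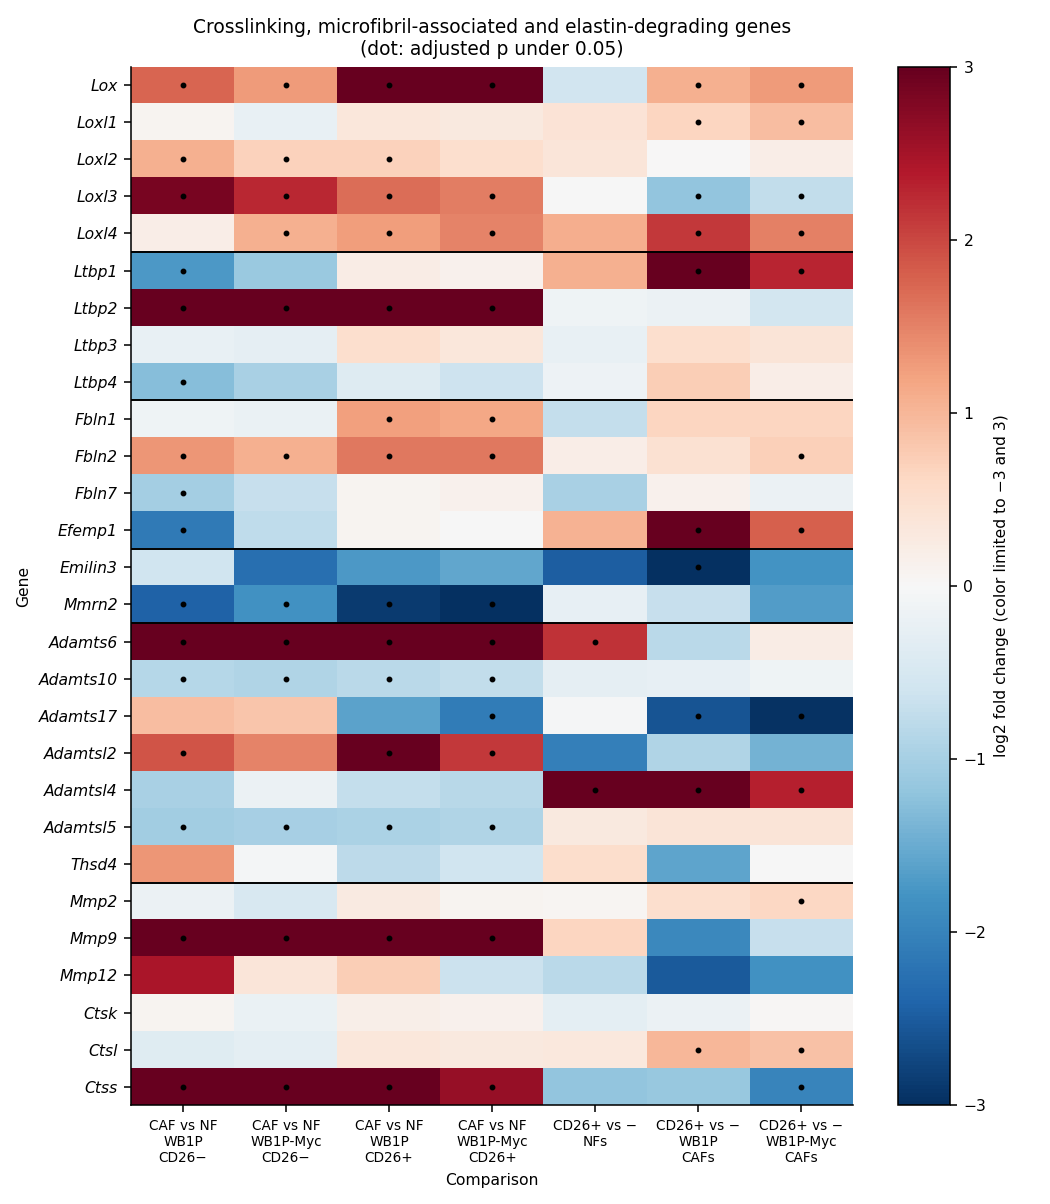
Log2 fold changes (color, limited to -3 and 3) of the related genes (rows) in 7 comparisons (columns), with a dot where the adjusted p was under 0.05. Lox, Ltbp2, Fbln2, Adamts6 and Mmp9 carry dots in all 4 comparisons of CAFs with NFs.

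Likeness to each member was measured as Pearson's r of log2 CPM over the 25 sums, which share mice, groups and sort gates, and is given as a description. The genes most like Eln were Mfap5 (r = 0.911), Tmed10 and Fstl1, and Fstl1 was also among the first 3 of Fbn1 and Mfap5. Efemp2 was most like Clptm1l (r = 0.95), Gdi2 and Lox (r = 0.945), the enzyme it carries to tropoelastin. Emilin1 was most like Golm1 (r = 0.957), Lrrc15 (r = 0.941) and Col11a1 (r = 0.91), and Fbn2 most like Srp72 (r = 0.93), Col5a2 and Ikbip. Emilin2 was most like Lrrn4cl (r = 0.969), Adgrd1 and Clip4, Mfap5 like Rhoa (r = 0.952), S100a16 and Fstl1, and Fbn1 like Cers6 (r = 0.944), Rras2 and Fstl1. The likeness was weaker for Mfap4, led by Cd63 (r = 0.834), St3gal4 and Ccdc80, for Mfap2, led by Epb41l3 (r = 0.899), Gm4425 and Tm9sf4, and for Fbln5, led by Plcd1 (r = 0.802), C2cd4c and Fam131b. Among the members themselves r over the 25 sums ran from -0.51 for Emilin1 with Emilin2 to 0.91 for Eln with Mfap5. With group means removed, Fbn2 with Emilin1 kept r = 0.833 and Eln with Mfap5 had r = 0.686, and Fbn2 and Emilin1 were both lowest among the controls in mouse 49/52.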

How the data were processed

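Fibroblast libraries were made with a stranded poly(A) mRNA kit and sequenced paired-end. The authors deposited 1 table of whole-number read counts per gene, aligned with HISAT2 2.2.1 to GRCm38 per the submitters' processing notes. The counter, strand setting and annotation release are not given in the sources used here. The table holds 55487 lines, of which 1 names no gene and has 0 counts. Counts were summed per mouse and CD26 class (25 sums, 6 of them of 1 library) and tested in edgeR 4.0.16 (R 4.3.3) with TMM scaling, filterByExpr (16601 genes), the quasi-likelihood test and Benjamini-Hochberg adjustment, called under 0.05, in 1 fit of 6 groups. En1 lineage comparisons used the 44 libraries (15584 genes). SE is the log2 fold change divided by the root of its F statistic. RPKM used exon lengths of GENCODE M21, where 55226 identifiers were found, 54906 of them with the same start and end. No 2 of 63 same-group library pairs agreed within sampling noise (lowest chi-square per degree of freedom 14.8).

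The classes of a mouse come from the same animal, so mouse pairs them: deviations from the group means correlated in all 12 mice with both classes (r 0.237 to 0.668, median 0.444). The study gives the populations per mouse but names no block in its test, and the main fit has none. Alternatives were DESeq2 1.42.0 size factors and Wald test, no low-count filter, limma-voom 3.58.1 with mouse as a random block (correlation 0.449 for sums and 0.508 for libraries), edgeR with mouse as a fixed block, only the groups compared, leaving out the 2 mice marked 8x8, only sums of 2 libraries, each mouse left out, and CPM by library total. All 10 members were tested in every comparison, and a member not named in a comparison was not called there in the main fit. Of related lists the counts and at most 3 genes per list and comparison are named, with the 3 genes of highest r for each member. Members and lists were chosen with earlier results of these data known.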

Additional observations from a re-analysis of the deposited data

Results flagged for a closer look

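The test of the difference between the CD26 classes in the change from NFs to CAFs passed for 2 members. For Mfap4 the change was larger in CD26+ than in CD26- fibroblasts by 2.85 on the log2 scale (SE 0.54, edgeR adjusted p = 0.0046), from 92.7 ± 60.7 CPM in CD26+ NFs (SD, n = 3) to 698 ± 139 (n = 4) and 622 ± 189 (n = 5) CPM in CD26+ CAFs of WB1P and WB1P-Myc, with CD26- fibroblasts at group means of 432 to 455 CPM. For Emilin2 the log2 change in CD26+ minus that in CD26- fibroblasts was 0.90 (SE 0.22, adjusted p = 0.0352). The change lay in the CD26- class, where Emilin2 fell, going from 313 ± 19.0 CPM (n = 3) to 178 ± 20.6 and 185 ± 34.9 CPM (n = 5 each). Within mice the Mfap4 order of the classes was CD26- above CD26+ in 3 of 3 control mice and the opposite in 9 of 9 tumor mice. The Mfap4 difference between the CAF classes was not called in the main fit, which does not pair the classes of a mouse (edgeR adjusted p = 0.233 in WB1P and 0.328 in WB1P-Myc). With mouse as a fixed block it passed in WB1P-Myc (edgeR adjusted p = 0.0262). It was not called in 12 of 13 alternatives in WB1P-Myc and in 13 of 13 in WB1P. Without control 44/46 the adjusted p of the difference in change was 0.059 for Mfap4 and 0.208 for Emilin2. Of 20 alternatives the Mfap4 call was lost in 1 and the Emilin2 call in 12, the latter with adjusted p from 0.00394 to 0.286.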

How the results depend on the processing

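Across the alternatives 63 log2 fold changes of members turned sign, 48 of them on leaving out a mouse. All were small (at most 0.289 in size before and 0.286 after) and none was called before or after, and the cause was not tested. With mouse as a random block they were Mfap4 -0.0252 in WB1P CD26- CAFs against NFs, Efemp2 -0.0224 in WB1P-Myc against WB1P CD26- CAFs and Fbln5 0.0517 in WB1P-Myc against WB1P CD26+ CAFs. With only sums of 2 libraries they were Fbln5 0.0497 in WB1P CD26- CAFs against NFs, Fbln5 -0.00509 in CD26+ against CD26- CAFs of WB1P-Myc, Mfap2 0.12 in WB1P-Myc against WB1P CD26- CAFs and Emilin1 -0.15 in the difference between classes. Without the 2 mice marked 8x8 they were Emilin1 -0.00853 in WB1P-Myc CD26- CAFs against NFs, Efemp2 -0.13 in WB1P-Myc against WB1P CD26- CAFs, Emilin2 -0.10 in WB1P-Myc against WB1P CD26- CAFs, Fbn2 -0.0298 in WB1P-Myc against WB1P CD26+ CAFs, Fbln5 0.0831 in WB1P-Myc against WB1P CD26+ CAFs, Mfap5 0.11 in WB1P-Myc against WB1P CD26+ CAFs, Eln 0.0402 in double+ against CD26+ fibroblasts and Emilin2 -0.0847 in double+ against CD26+ fibroblasts. Ranges over leaving out each mouse were, in WB1P CD26- CAFs against NFs Fbln5 -0.38 to 0.0538 and Mfap4 -0.20 to 0.14, in WB1P-Myc CD26- CAFs against NFs Fbn2 -0.29 to 0.81, Mfap4 -0.32 to 0.13 and Emilin1 -0.17 to 0.40, in WB1P CD26+ CAFs against NFs Mfap2 -0.16 to 0.14, in WB1P-Myc CD26+ CAFs against NFs Mfap2 -0.0741 to 0.23 and Emilin2 -0.0906 to 0.22, in CD26+ against CD26- NFs Eln -0.13 to 0.70 and Efemp2 -0.00139 to 0.0659, in CD26+ against CD26- CAFs of WB1P Fbln5 -0.24 to 0.16. Further ranges were, in WB1P-Myc against WB1P CD26- CAFs Eln -0.28 to 0.10, Efemp2 -0.0528 to 0.12, Mfap2 -0.16 to 0.0373, Mfap4 -0.35 to 0.13 and Emilin2 -0.0579 to 0.12, in WB1P-Myc against WB1P CD26+ CAFs Eln -0.18 to 0.0435, Fbn1 -0.28 to 0.0650, Fbn2 -0.0328 to 0.38, Fbln5 -0.14 to 0.0591 and Mfap5 -0.18 to 0.11, in the difference between classes Emilin1 -0.0946 to 0.22, in En1+ against double- fibroblasts Mfap4 -0.18 to 0.0248, in double+ against CD26+ fibroblasts Eln -0.12 to 0.00705, Fbln5 -0.0485 to 0.0288 and Emilin2 -0.0259 to 0.0685.

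Counts of members called between CD26+ and CD26- NFs were 6 with mouse as a fixed block and 1 with only the groups compared, against 3, and 1 to 3 on leaving out a mouse. For the difference between classes the count was 1 without the low-count filter and 1 with only sums of 2 libraries, against 2, and 0 to 2 on leaving out a mouse. Other counts of members stayed within 1.5 times, and the block changed no call besides those given with the results. Counts over all genes moved more: between the NF classes 692 became 1918 with the fixed and 2166 with the random block, 202 with only the groups compared, 175 without control 44/46 and 230 without 49/52. Between WB1P-Myc CAF classes 3326 became 5328 and 5411 with the blocks, 2016 without the 8x8 mice, 1932 with sums of 2 libraries and 2065 without mouse 21. For the difference between classes 351 became 1007 and 1427 with the blocks, 726 under DESeq2 and 74 to 157 without a control mouse. In CD26+ CAFs of WB1P 5566 became 2834 with only the groups compared and 3458 without control 44/46, and in those of WB1P-Myc 5753 became 3740 without the latter. Between the models' CD26- CAFs 85 became 402 under DESeq2, 54 without the filter, 50 without the 8x8 mice, 11 with sums of 2 libraries, 6 with only the groups compared and 9 to 243 on leaving out a mouse. With 3 control mice, 1 mouse can decide a call. Depth limited no member. Fitted folds of genes near 0 in NFs, such as Mmp9 and Adamts6, depend on few counts.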
